A study of Rattus norvegicus with 8 samples.

Results

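Most genes of the rat are interrupted by introns, which are copied into the primary transcript and then removed by the spliceosome. The assembled transcripts described here lie wholly inside an intron of an annotated gene (class code i in the deposited table of predicted long non-coding RNAs, lncRNAs), and that gene is called the host. They number 1421 of the 4686 predicted lncRNAs and lie in introns of 882 hosts on 21 chromosomes, while 2821 others are intergenic (class code u) and 258 overlap a gene on the other strand (class code x). Each was matched to its host by the gene symbol given in the table, and the 609 transcripts in 478 hosts that reached 0.1 FPKM (a level of sequenced fragments scaled for transcript length and library size) in at least 4 of the 8 libraries were tested.

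The RNA came from thoracic aorta of wild type male Sprague Dawley rats, whose age is given as 12 weeks and whose weight as 180 to 200 g. The nitroglycerin group of 4 libraries had received this organic nitrate vasodilator by subcutaneous injection at 100 mg/kg, in 3 daily doses over 3 days. The 4 control libraries came from rats given ethanol, the vehicle, alone. Ribosomal RNA was depleted from the total RNA before the libraries were made. The comparison asks which transcripts differ in aorta after a schedule used to produce nitrate tolerance. Whether each library is its own rat is not said, and p-values therefore rest on the spread among the 8 samples as labelled.

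Removed introns are usually debranched by Dbr1 and degraded within the nucleus by the exosome, an RNA-degrading complex, so steady-state RNA from an intron is normally scarce. Libraries made from total RNA nevertheless hold unspliced precursors, and an assembler can report a stretch of intron as a transcript of its own. Some intronic transcripts are independent genes with their own promoters, and others are stable remains of introns. A single-exon intronic transcript on the host's strand cannot be told apart from unspliced host RNA by its FPKM, and this limit applies to every level below. In bulk tissue, fewer cells of a type and less RNA per cell cannot be told apart either.

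The intronic transcripts were mostly short, unspliced and low. A single exon made up 1304 of the 1421 (91.8%), against 91.0% of the intergenic and 65.1% of the antisense transcripts. Lengths ran from 202 to 41050 nucleotides with a median of 723, against medians of 970 for intergenic and 1949 for antisense transcripts. The median of the mean level over 8 libraries was 0.368 FPKM, below the 0.438 of intergenic and the 0.867 of antisense transcripts. Accordingly 42.9% of intronic transcripts met the minimum for testing, against 50.8% and 73.6% of the other classes. Just inside that minimum, the 145 transcripts with 0.1 FPKM in exactly 4 libraries had a median mean level of 0.496 FPKM, and just outside it the 172 with 3 libraries had 0.368 FPKM.

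Among the 609 tested transcripts the median mean level was 0.890 FPKM, with quartiles at 0.559 and 1.47 and a maximum of 7.56. Only 191 of them were above 0 in all 8 libraries, and 153 were listed at 0 in some library although they reached at least 1 FPKM in 4 or more others. An exact 0 in a table of FPKM can be a failed estimate, so values at 0 are given library by library, with no fold change. Read counts per transcript were not analysed here, and no upper limit was estimated for a 0.

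More intronic transcripts were listed above 0 in nitroglycerin replicate 4 than in any other library. That library had 755 of the 1421 above 0, while nitroglycerin replicates 1 to 3 had 608, 613 and 592 and control replicates 1 to 4 had 668, 665, 684 and 663. It also held 90 intronic transcripts that appeared in no other library, against 28 to 52 in the controls and 29 to 36 in the other nitroglycerin libraries. Their summed level was 0.760% of the FPKM of the gene table there, 0.561 to 0.601% in the other nitroglycerin libraries and 0.317 to 0.573% in controls. Nitroglycerin replicate 4 had the least aligned sequence, 6.77 Gb against 7.48 to 8.86 Gb elsewhere, and the part of depth in these counts was not tested.

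**Figure D1:**
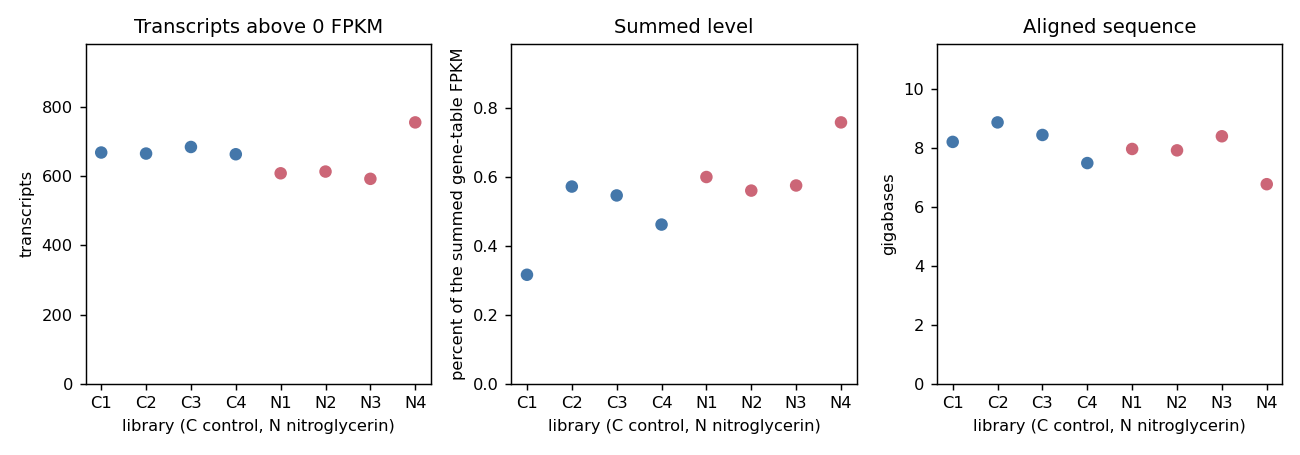
Number of the 1421 intronic transcripts above 0 FPKM, their summed level as a percent of the summed FPKM of the gene table, and the aligned sequence in gigabases, each as 1 point per library (blue, control replicates 1 to 4; red, nitroglycerin replicates 1 to 4). Nitroglycerin replicate 4 is highest in the first panels, at 755 transcripts and 0.760%, and lowest in aligned sequence, at 6.77 Gb.

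Where strand could be compared, intronic transcripts lay mostly on the strand of their host. A host strand was found in the RefSeq promoter table (build GRCr8) for 489 of the 609 tested transcripts (80.3%), and 423 of these (86.5%) lay on the host's strand and 66 (13.5%) on the other. The median levels were 0.865 FPKM on the same strand and 0.895 FPKM on the opposite strand, and the median lengths 1346 and 853 nucleotides. Host strand was read from a newer build than the one that gave the coordinates, so a region inverted between builds would read as opposite. Without any reference, 232 of the 244 hosts with more than 1 intronic transcript (95.1%) had all of them on 1 strand. As a check of the lookup, 174 of the 179 antisense transcripts whose gene was found (97.2%) read as opposite.

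Some hosts carried many such transcripts. Dennd1a, an exchange factor for the small GTPase Rab35, held 20, all on its own strand over 428 kb, of which 7 were tested. Tcf4, a basic helix-loop-helix transcription factor, held 19 with 4 tested, and Mdga2, a membrane-anchored immunoglobulin-domain protein, 15 with 6 tested. Glcci1 held 13 and Limch1, an actin and myosin regulator, 12. In each of these 5 hosts every intronic transcript lay on the same strand as the rest.

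The intronic transcripts of Dennd1a summed to 4.94 FPKM in control replicates 2 and 4, more in replicates 3 and 1 (mean 5.72 ± 1.52 over the 4), and to 3.84, 8.18, 8.10 and 18.2 FPKM in nitroglycerin replicates 1 to 4. The nitroglycerin libraries held both the lowest and the highest sum, so the groups overlapped. Those of Tcf4 summed to 6.33 ± 3.22 FPKM in controls and 9.27 ± 6.20 FPKM in nitroglycerin libraries (mean ± SD, n = 4 per group, as throughout). Those of Mdga2 summed to 6.49 ± 4.32 and 3.38 ± 1.52 FPKM. The groups overlapped for these hosts too, and neighbouring transcripts of 1 host are not independent.

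Most intronic transcripts were lower than their host, and a small set was far higher. Of the 609, 566 had exactly 1 annotated host row in the gene table, 34 had none and 9 had 2. Across these 566 pairs the median ratio of transcript to host FPKM was 0.379, with quartiles of 0.233 and 0.720. The median ratio was 0.344 for transcripts on the host's strand and 0.780 for those on the other. Levels of transcripts and hosts went together loosely across pairs (Spearman's rho 0.356, Pearson's r 0.244 on log2 values, n = 566 pairs that share 8 libraries and, within a host, a gene). Of the pairs, 90 had the transcript above its host.

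In 29 pairs, from 27 hosts, the transcript was over 10 times its host, and all 29 had a single exon. The host's mean was at most 0.369 FPKM in these pairs. The strand was that of the host in 9, the opposite in 11 and not found in 9. The highest intronic transcript of all was of this kind. MSTRG.5838.1, 310 nucleotides in an intron of Cacna1e, which encodes the pore of a voltage-gated calcium channel, lies at chr13:71948263-71948572 on the host's strand. It read 5.54, 9.07, 7.59 and 5.31 FPKM in controls and 8.65, 9.09, 8.26 and 7.01 FPKM in nitroglycerin libraries, while Cacna1e itself read 0.0225 to 0.133 FPKM over all 8. The groups overlapped, and the adjusted p was 0.648 (limma, Benjamini-Hochberg).

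Other hosts of this set are known mainly from other tissues. MSTRG.9163.1 in Myo7b, a myosin of the intestinal brush border, averaged 5.78 FPKM, 57.7 times its host. MSTRG.18435.1 in Nr1h4, the bile acid receptor of liver and gut, averaged 1.65 FPKM, while Nr1h4 was listed at 0 in 7 libraries. MSTRG.17788.1 in Nrxn3, a synaptic adhesion protein, averaged 1.94 FPKM against 0.00363 FPKM. MSTRG.2947.1 in Cyfip2, a subunit of the actin-regulating WAVE complex, averaged 5.21 FPKM against 0.369 FPKM. These transcripts were thus measured in aorta at levels that their hosts did not approach.

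**Figure D2:**
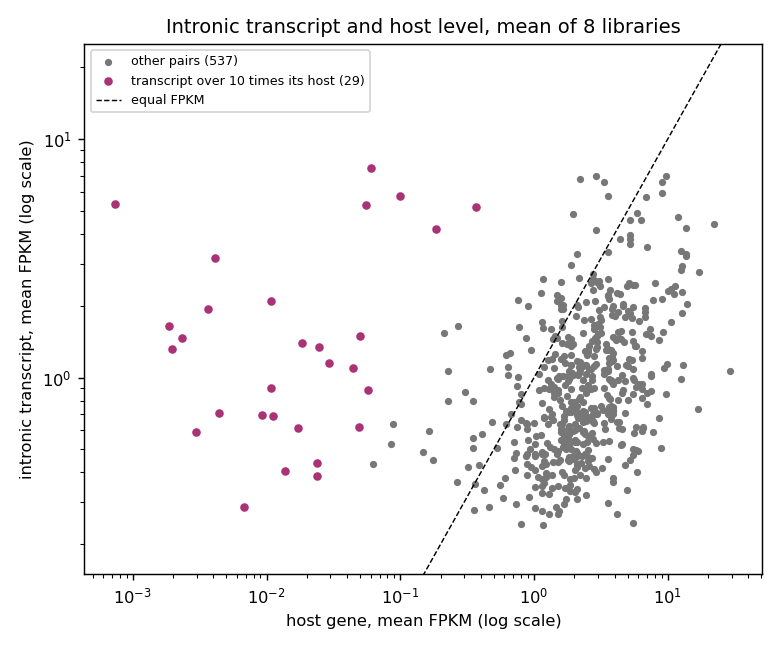
Mean FPKM over 8 libraries of each tested intronic transcript (y axis, log scale) against that of its host gene (x axis, log scale), 1 point per pair for 566 pairs, with a dashed line of equal level. Purple points are the 29 transcripts over 10 times their host, which all have a host mean of at most 0.369 FPKM, and most other points lie below the line.

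The next highest intronic transcripts lay in expressed hosts. MSTRG.17559.1 in Ppm1a, a serine/threonine phosphatase, averaged 6.47 ± 1.93 FPKM in controls and 7.57 ± 2.15 FPKM in nitroglycerin libraries, with overlapping groups. MSTRG.13172.1 in Ptprj, a receptor tyrosine phosphatase, is 12621 nucleotides long and read 3.37, 7.41, 5.10 and 5.43 FPKM in controls and 8.97, 7.01, 9.87 and 8.54 FPKM in nitroglycerin libraries, with overlap through control replicate 2 (adjusted p = 0.516 by limma with Benjamini-Hochberg adjustment). MSTRG.21088.1 in Pgap1, which remodels membrane anchors, ranged from 3.63 to 7.66 FPKM in controls and from 1.66 to 11.8 FPKM in nitroglycerin libraries. MSTRG.21356.1 in Agfg1 read 5.04 to 8.51 FPKM in controls and 6.93 to 11.4 FPKM in nitroglycerin replicates 2 to 4, but was listed at 0 in replicate 1, where Agfg1 stood at 2.41 FPKM.

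Transcripts with more than 1 exon numbered 104 of the 609. The 3 highest were MSTRG.10817.1 in Fndc3b, MSTRG.19733.1 in Zbtb16 and MSTRG.19200.1 in Ano6, a calcium-activated lipid scramblase. The transcript in Zbtb16, a zinc finger transcription factor that glucocorticoids induce, read 1.54, 7.16, 0.912 and 5.70 FPKM in controls and 8.72, 0.720, 3.38 and 9.44 FPKM in nitroglycerin libraries. Zbtb16 itself read from 5.8 to 19.7 FPKM in controls and from 2.23 to 19.1 FPKM in nitroglycerin libraries. Both ranged widely within each group, with nitroglycerin replicate 2 lowest for both, and the groups overlapped. For Ano6 the transcript averaged 4.95 ± 1.27 and 4.19 ± 1.89 FPKM, and the transcript in Fndc3b 5.21 ± 3.29 and 4.8 ± 0.755 FPKM.

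Between nitroglycerin and control aortas, 1 intronic transcript passed the test, in Cdc37. It was listed at 0 in every nitroglycerin library and met the minimum only through the controls, so it had to differ, and its call is given as a description. With limma on log2(FPKM + 0.1) over all 2390 lncRNAs that met the minimum and Benjamini-Hochberg adjustment, 0 of the 609 were higher and 1 was lower at an adjusted p under 0.05, beside 0% and 0.0418% of all tested lncRNAs. At an unadjusted p under 0.05, 41 (6.73%) were higher and 9 (1.48%) lower, against 7.62% and 1.13% of all. The median log2 difference, nitroglycerin minus control, was 0.32 over intronic transcripts and 0.36 over all. Of the 609, 34 had every nitroglycerin library above every control (5.58%, against 7.28% of all) and 4 the reverse (0.657%, against 0.335%). The higher shares lie a little below those of the whole table and the lower shares above. The 4 lower without overlap are the ones listed at 0 in every nitroglycerin library, and they also count among the 9. They met the minimum only through the controls, so they could not overlap. The 0.0418% is the transcript in Cdc37 itself.

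The upward lean is shared with the gene table, whose median log2 difference was 0.30. After the libraries were rescaled by median-of-ratios factors, which brought that median to 0.01, the intronic median was 0.03. At an unadjusted p under 0.05, 19 intronic transcripts (3.12%) were then higher and 15 (2.46%) lower, against 2.76% and 2.05% of all tested lncRNAs. The same transcript passed after rescaling. Without nitroglycerin replicate 4 the intronic median as deposited was 0.21, and the same transcript passed.

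MSTRG.19477.1 lies in an intron of Cdc37, the cochaperone that delivers protein kinases to Hsp90. It is 3567 nucleotides long, at chr8:22156640-22160206 on the host's strand. It read 2.43, 3.06, 2.53 and 3.42 FPKM in controls, whereas each of the 4 nitroglycerin libraries listed it at 0 (adjusted p = 0.0234, limma with Benjamini-Hochberg adjustment). Cdc37 itself read 6.25, 8.71, 8.10 and 7.36 FPKM in controls and 9.50, 9.99, 9.48 and 9.47 FPKM in nitroglycerin libraries. The host groups did not overlap, and lay in the opposite order (adjusted p = 0.110, the same test on genes). The log2 difference of Cdc37 was 0.31 ± 0.12 (SE), near the median of 0.30 over all genes, so the host moved like the rest of the gene table. The call for the transcript was lost when any control or nitroglycerin replicate 1 was left out (adjusted p = 0.0547 to 0.296), and also with robust variance (0.135), although the values kept their layout.

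The 6 others named next shared this layout, at 0.1 FPKM or more in every library of 1 group and at 0 in every library of the other. Like the transcript in Cdc37, they met the minimum only through the group in which they were present, so they had to differ. In all, 4 of the 609 intronic transcripts were at or above 0.1 FPKM in every control and under it in every nitroglycerin library. Among all 2390 tested lncRNAs, 7 were, these 4 included (0.293%). The reverse was seen for 3 of the 609 and for the same 3 of the 2390 (0.126%). The control-only ones lay in Cdc37, Fas, Stau2 and Uxs1, and the nitroglycerin-only ones in Pym1, Ppat and Dock8.

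MSTRG.2333.1 lies in Fas, a death receptor of the tumour necrosis factor family, at chr1:252614264-252615426 on the host's strand. It read 1.58, 1.54, 0.880 and 1.70 FPKM in controls and was listed at 0 in every nitroglycerin library (adjusted p = 0.0964 by limma with Benjamini-Hochberg adjustment). Fas read 1.64, 1.83, 2.26 and 3.39 FPKM in controls and 2.92, 2.86, 5.33 and 3.34 FPKM in nitroglycerin libraries, with overlapping groups. In Uxs1, which makes UDP-xylose for the sugar chains of proteoglycans, MSTRG.20732.1 lies at chr9:11320962-11322534 on the opposite strand. It read 0.897, 1.6, 0.869 and 0.236 FPKM in controls and was listed at 0 in the other group, while Uxs1 read 1.34, 2.32, 1.17 and 1.29 and then 2.13, 1.54, 2.03 and 2.60 FPKM. Neither host had a lower mean after nitroglycerin.

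MSTRG.15429.1 in Stau2, a double-stranded RNA-binding protein of RNA transport, lies at chr5:2324607-2327339. It read 0.858, 1.48, 0.747 and 0.441 FPKM in controls and was listed at 0 in the nitroglycerin group (adjusted p = 0.208, limma with Benjamini-Hochberg adjustment). MSTRG.8336.1 in Faf2, a protein of endoplasmic-reticulum-associated degradation, came near this layout. Its controls read 1.67, 1.01, 1.61 and 1.79 FPKM and its nitroglycerin libraries 0, 0, 2.19 and 0. The value in nitroglycerin replicate 3 was above every control, so the groups overlapped.

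On the nitroglycerin-only side, MSTRG.18153.1 lies in Pym1, which helps to take exon junction complexes off spliced mRNA, at chr7:3182914-3183415. It was listed at 0 in controls and read 1.22, 1.76, 1.25 and 1.74 FPKM in nitroglycerin libraries (adjusted p = 0.0964, limma with Benjamini-Hochberg adjustment). Pym1 itself read 2.19, 2.88, 1.6 and 0.156 FPKM in controls and 3.19, 3.13, 4.95 and 3.05 FPKM after nitroglycerin, in the same order as its transcript and without overlap (adjusted p = 0.114 in the same test on genes).

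MSTRG.6484.1 lies in Ppat, the enzyme of the first committed step of purine synthesis, at chr14:33587724-33590188 on the host's strand. It was listed at 0 in controls and read 0.671, 1.52, 1.08 and 1.25 FPKM after nitroglycerin (adjusted p = 0.142 by limma with Benjamini-Hochberg adjustment), while Ppat read 1.11, 1.40, 2.05 and 2.24 and then 2.35, 1.38, 1.47 and 1.56 FPKM. The host groups overlapped. The transcript in Dock8, an exchange factor of immune cells, read 0.608, 1.01, 0.105 and 0.195 FPKM, the last values close to the minimum.

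**Figure D3:**
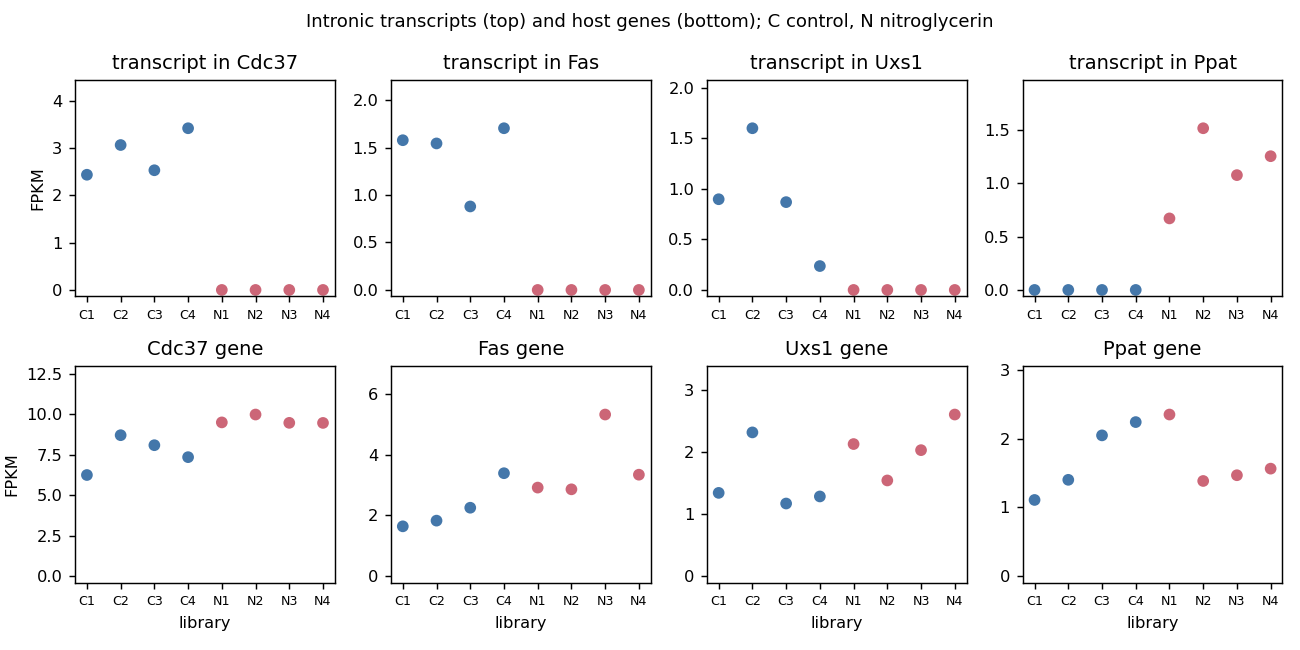
FPKM of the intronic transcripts in Cdc37, Fas, Uxs1 and Ppat (top) and of the host genes (bottom), 1 point per library (C, control replicates 1 to 4, blue; N, nitroglycerin replicates 1 to 4, red), each panel with its own axis from 0. Each transcript is listed at 0 in all 4 libraries of 1 group, while its host is above 1 FPKM in all 8.

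The level of a transcript relative to its host was taken within each library, which removes most of the library scale where both are well above the pseudocount. For a transcript at 0 the ratio follows the host and the pseudocount, and so still moves with that scale. The ratio was tested with limma on log2(transcript FPKM + 0.1) minus log2(host FPKM + 0.1) over 761 lncRNA and host pairs of all classes, 537 of them intronic. At a Benjamini-Hochberg adjusted p under 0.05, 1 intronic ratio was higher (0.131% of all pairs) and 3 were lower (0.394% of all pairs). The higher was that of Ppat (adjusted p = 0.0312), and the lower were those of Cdc37 (0.00624), Fas (0.00855) and Uxs1 (0.0312). All 4 belong to the transcripts listed at 0 throughout 1 group, so these calls rest on the zeros, and no size is given.

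At an unadjusted p under 0.05, 14 intronic ratios (2.61%) were higher and 17 (3.17%) lower, against 2.50% and 2.63% of all pairs, and the median log2 difference was -0.08 against -0.06 of all. With both transcript and host at 0.1 FPKM or more in all 8 libraries, 154 intronic pairs remained, without these 4 by construction. Of the 154, 0 passed in limma, as did 0 of all 265 pairs so filtered. Their median log2 difference was 0.03, against 0.04 over the 265. With 1 library left out in turn, 0 to 5 passed. The number was 0 without control replicate 1, 1 without control replicate 2, and 2 without control replicate 3, nitroglycerin replicate 2 or nitroglycerin replicate 4. Over 13 settings the ratio passed in 11 for Cdc37, 9 for Fas, and 4 each for Uxs1 and Ppat. The 13 include the main fit and 1 setting chosen after seeing the data, and leave out the minimum in all 8 libraries. These 4 transcripts met the minimum only through 1 group, so the tally is a description and no measure of support.

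Among the intronic pairs above 0 in both groups, the ratio of lowest p was that of MSTRG.7774.1 in Cyp4f18, a cytochrome P450 that oxidises leukotrienes. The transcript, 204 nucleotides at chr16:19489112-19489315 on the host's strand, read 1.04, 1.5, 2.06 and 0.695 FPKM in controls and 3.04, 1.27, 2.62 and 3.70 FPKM after nitroglycerin. Cyp4f18 read 1.45, 1.34, 1.33 and 0.753 FPKM and then 0.545, 0.492, 0.572 and 0.771 FPKM. The transcript tended up and the host down, with overlap in both, and the ratio differed by 1.86 ± 0.33 on the log2 scale (SE, adjusted p = 0.0794 by limma with Benjamini-Hochberg adjustment), short of the threshold.

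Over all intronic pairs, whether above 0 in both groups or not, the remaining ones of lowest p included those in AABR07034940.2 and Hscb, a cochaperone of iron-sulfur cluster assembly, which tended up, and those in Zfp384 and, at 0 in every nitroglycerin library, Stau2, which tended down. The transcript in Hscb, MSTRG.5582.1, read 0.642, 0, 0 and 0 FPKM in controls and 0.939, 0.848, 0.926 and 1.86 FPKM after nitroglycerin. Its groups did not overlap, and its ratio had an adjusted p of 0.651 in limma with Benjamini-Hochberg adjustment. The transcript in Zfp384, MSTRG.15162.1, read 0.711, 1.6, 0.988 and 1.32 FPKM in controls and 1.41, 0, 0 and 0 FPKM after nitroglycerin, so that its groups overlapped through replicate 1.

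**Figure D4:**
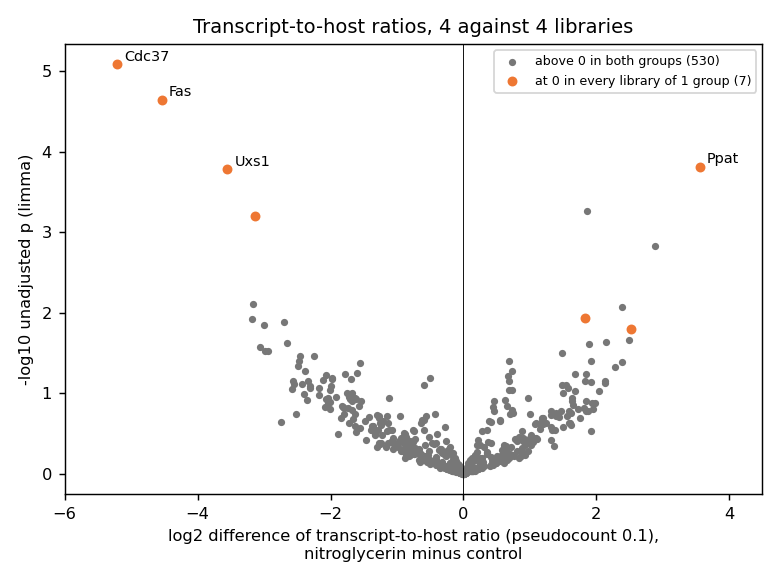
Difference of the transcript-to-host ratio between nitroglycerin and control libraries (x axis, log2 with a pseudocount of 0.1) against -log10 of the unadjusted limma p (y axis) for 537 intronic pairs, 1 point per pair. Orange points are the 7 transcripts listed at 0 in every library of 1 group, whose x position depends on the pseudocount, and the 4 labelled pairs passed the adjusted threshold.

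The host genes themselves were tested with all genes, on log2(FPKM + 1) over 12977 rows with at least 1 FPKM in 4 or more libraries. Of the 861 annotated host rows, 677 were tested, and 30 were under 0.1 FPKM in every library. By limma with Benjamini-Hochberg adjustment 15 hosts rose (2.22%, against 1.29% of all genes) and 0 fell (0.0616% of all genes). At an unadjusted p under 0.05, 258 (38.1%) were higher and 1 (0.148%) lower, beside 34.1% and 1.02% of all genes. The median log2 difference was 0.30 over hosts and 0.30 over all genes, so hosts as a group moved like the rest of the table. After rescaling 0 hosts passed in either direction, beside 0.0308% of all genes as higher and 0.0925% as lower. There 51 (7.53%) were higher and 36 (5.32%) lower at an unadjusted p under 0.05, beside 5.59% and 6.33% of all genes. The 15 kept log2 differences of 0.25 to 0.75 there, with adjusted p from 0.0605 to 0.358.

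The number of host calls depended on each library. It was 0 without control replicate 1, 3 or 4 or nitroglycerin replicate 1 or 3, 2 without control replicate 2, 1 without nitroglycerin replicate 4 and 19 without nitroglycerin replicate 2. When assembled rows were left out of the table, an alternative chosen after seeing the data, 61 hosts (9.01%) passed beside 8.05% of all annotated genes.

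By role, 2 of the 15 handle lipid or membrane traffic. Abca1, which exports cholesterol from cells, rose from 3.72 ± 0.507 to 7.70 ± 1.03 FPKM, and Rab11fip2, an effector of recycling endosomes, from 1.53 ± 0.173 to 2.83 ± 0.312 FPKM. Several serve RNA. Ints11, the endonuclease of the Integrator complex, rose from 2.67 ± 0.123 to 4.88 ± 0.859 FPKM, Gon7, a subunit of the tRNA-modifying KEOPS complex, from 0.507 ± 0.0663 to 1.90 ± 0.368 FPKM, and Znhit6, which assembles box C/D small nucleolar ribonucleoproteins, from 1.32 ± 0.192 to 2.47 ± 0.165 FPKM.

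Others act in mitochondria and cilia. Nfu1, a scaffold for iron-sulfur clusters, rose from 2.05 ± 0.109 to 4.38 ± 0.818 FPKM, Fam173b, a mitochondrial lysine methyltransferase, from 1.54 ± 0.0859 to 2.69 ± 0.196 FPKM, and Pank2, a pantothenate kinase of coenzyme A synthesis, from 1.49 ± 0.187 to 2.74 ± 0.341 FPKM. Ift81, of intraflagellar transport, rose from 1.36 ± 0.196 to 2.67 ± 0.0954 FPKM, and B9d2, of the ciliary transition zone, from 1.6 ± 0.135 to 2.86 ± 0.184 FPKM. The remaining ones were Nipal2 (2.74 ± 0.737 to 6.67 ± 0.484 FPKM), Wdsub1, Aasdh, Fam193b and the transcription factor Ebf1. These groupings were made after the calls were known.

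The 15 hosts held 24 intronic transcripts, of which 14 in 10 hosts were tested. None of the 14 passed at an adjusted p under 0.05 in limma. At an unadjusted p under 0.05, 5 were higher, 3 of them neighbours in Ebf1, and 1, MSTRG.2601.1 in Rab11fip2, was lower, beside 7.62% and 1.13% of all tested lncRNAs. The other tested transcript of Rab11fip2, MSTRG.2600.1, averaged 0.564 ± 0.253 FPKM in controls and 1.07 ± 0.310 FPKM after nitroglycerin, while MSTRG.2601.1 read 0.469, 0.900, 1.08 and 1.21 FPKM and then 0, 0, 1.27 and 0. The latter rests on 3 values listed at 0, with its nitroglycerin replicate 3 above every control, and the difference between these transcripts was not tested.

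In Fam193b, MSTRG.8319.1 averaged 1.54 ± 0.343 FPKM in controls and 2.29 ± 0.368 FPKM after nitroglycerin. MSTRG.6489.1 in Aasdh also tended up with its host. It read 0, 0, 0.455 and 0 FPKM in controls and 0.602, 1.595, 0.337 and 1.74 FPKM after nitroglycerin, with overlapping groups. The tested transcripts in Znhit6, Nfu1 and Gon7 were each listed at 0 in some libraries, and their groups overlapped. That in Znhit6 read 0.729, 1.43, 0.332 and 0.450 FPKM in controls and 0, 0.850, 2.15 and 0 after nitroglycerin. For Nfu1 the values were 0.200, 0, 1.68 and 0.311 and then 0, 0, 0.760 and 0.388 FPKM. For Gon7 they were 0.612, 0, 0.649 and 1.00 and then 0, 1.58, 0 and 0 FPKM. The transcripts of lowest p among the 14 lay in Abca1 and Ebf1, whose promoters are shown because gene and transcripts tended the same way there. The sequences, the 250 bases before to 50 after the RefSeq start in build GRCr8, are shown with capitals marking 4 motifs searched on both strands. The TATA box was searched as TATAAA and the GC box as GGGCGG. For the E-box the letters were CACGTG, and for the CCAAT box those of its name.
Abca1 promoter (chr5:72596424-72596723, minus strand): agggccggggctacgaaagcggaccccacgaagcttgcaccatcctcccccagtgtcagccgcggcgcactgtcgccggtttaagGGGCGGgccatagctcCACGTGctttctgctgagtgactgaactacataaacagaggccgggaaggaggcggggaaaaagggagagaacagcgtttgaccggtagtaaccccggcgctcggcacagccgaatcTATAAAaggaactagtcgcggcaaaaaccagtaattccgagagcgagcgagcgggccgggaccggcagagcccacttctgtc
Ebf1 promoter (chr10:29601671-29601970, plus strand): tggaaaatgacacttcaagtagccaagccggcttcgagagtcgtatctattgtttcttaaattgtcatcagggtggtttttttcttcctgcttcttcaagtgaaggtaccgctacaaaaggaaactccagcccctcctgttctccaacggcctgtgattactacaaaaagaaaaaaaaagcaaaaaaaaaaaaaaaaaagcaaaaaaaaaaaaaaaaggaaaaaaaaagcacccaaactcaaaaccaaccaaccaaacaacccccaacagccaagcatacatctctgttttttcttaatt

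That of Abca1 holds 1 TATA box, 1 GC box and 1 E-box, and that of Ebf1, 37.0% G or C, holds none of the 4. Over all 33469 promoters of that table, 14.2% hold the TATA box, 37.5% the CCAAT box, 33.1% the GC box and 6.42% the E-box in these letters. A match is a description of these letters and not a shown binding site.

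In Abca1 the intronic transcript is MSTRG.15794.1, with 2 exons and 8928 nucleotides at chr5:69939510-69949379 on the host's strand. It read 0.881, 0.749, 0.589 and 0.696 FPKM in controls and 1.78, 2.37, 1.68 and 2.12 FPKM after nitroglycerin. The groups did not overlap. The difference was 1.33 ± 0.32 on the log2 scale (SE, adjusted p = 0.310 by limma with Benjamini-Hochberg adjustment), against 0.88 ± 0.13 for Abca1 itself (adjusted p = 0.0413), on scales that differ in pseudocount. With only the 816 lncRNAs at 0.1 FPKM or more in all 8 libraries tested, it was the 1 intronic transcript to pass of 179 (adjusted p = 0.0305, beside 0.613% of all). In that set 32 intronic transcripts (17.9%) were higher at an unadjusted p under 0.05, beside 21.9% of all. After rescaling of the larger set the adjusted p of MSTRG.15794.1 was 0.861 in limma. The ratio to the host differed by 0.30 ± 0.40, less than its error.

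Ebf1, a transcription factor of B cells and adipocytes, carried 4 single-exon transcripts in a row on its own strand, between positions 23708478 and 23749163 of chromosome 10, and all 4 were tested. Ebf1 rose from 4.00 ± 0.470 to 6.42 ± 0.486 FPKM (0.57 ± 0.11 on the log2 scale, adjusted p = 0.0492 by limma with Benjamini-Hochberg adjustment). MSTRG.2934.1, at chr10:23725792-23728333, read 2.72, 2.91, 2.81 and 2.81 FPKM in controls and 5.25, 3.78, 4.64 and 6.69 FPKM after nitroglycerin, with no overlap (log2 difference 0.80 ± 0.23, adjusted p = 0.505). After rescaling the log2 difference of MSTRG.2934.1 was 0.43 ± 0.20 (adjusted p = 0.863, limma with Benjamini-Hochberg adjustment). MSTRG.2932.1 averaged 3.41 ± 0.779 and 5.74 ± 1.46 FPKM, with overlap, and MSTRG.2933.1 2.65 ± 0.470 and 4.94 ± 1.48 FPKM, without.

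The fourth, MSTRG.2935.1, is 16995 nucleotides long and read 3.14, 2.43 and 3.08 FPKM in control replicates 2 to 4, close to its neighbours, but was listed at 0 in control replicate 1. Its groups did not overlap. In control replicate 1 the 3 neighbours read 2.10 to 2.73 FPKM and Ebf1 3.84 FPKM. The levels of the 4 transcripts were 0.696 to 0.878 times that of Ebf1. None of their ratios to Ebf1 had an unadjusted p under 0.05, and that of MSTRG.2934.1 differed by 0.13 ± 0.26 on the log2 scale.

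**Figure D5:**
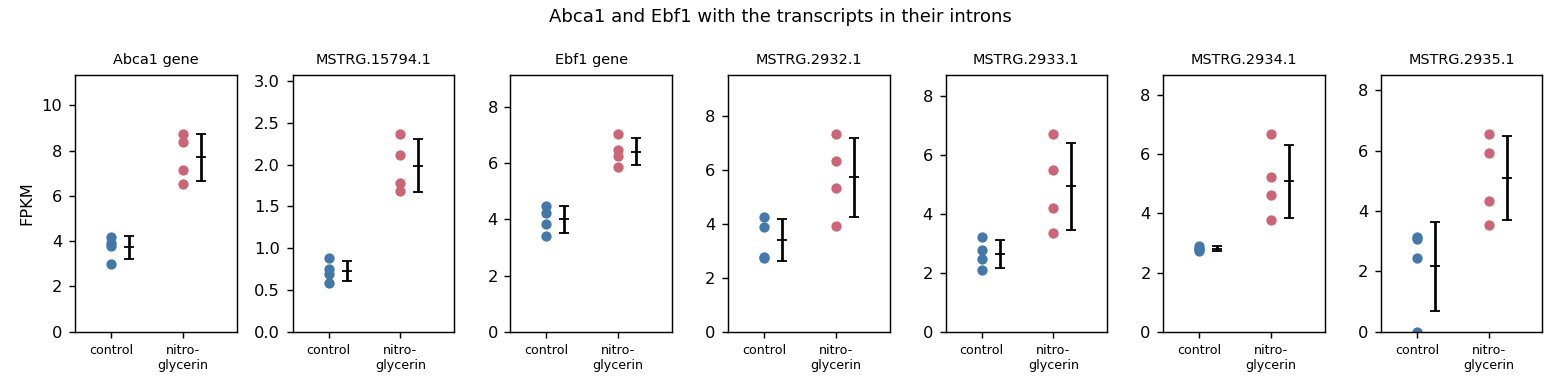
FPKM of Abca1, of Ebf1 and of the intronic transcripts in them (MSTRG.15794.1 in Abca1, MSTRG.2932.1 to MSTRG.2935.1 in Ebf1), 1 point per library, control blue and nitroglycerin red, with a bar for mean ± SD (n = 4) and a separate axis from 0 in each panel. Nitroglycerin points lie above control points for both genes, MSTRG.15794.1, MSTRG.2933.1, MSTRG.2934.1 and MSTRG.2935.1, the last with 1 control at 0, and the groups overlap for MSTRG.2932.1.

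MSTRG.9160.1 in Lims2, a focal adhesion protein, lay on the opposite strand of its host, at chr18:24721537-24721969. It read 3.38, 3.58, 3.49 and 4.26 FPKM in controls and 11.0, 4.62, 8.45 and 8.57 FPKM after nitroglycerin. Its groups did not overlap, with a log2 difference of 1.07 ± 0.28 and an adjusted p of 0.376 (limma, Benjamini-Hochberg). After rescaling that difference was 0.69 ± 0.25, with an adjusted p of 0.861 in the same test. Lims2 averaged 7.71 ± 1.48 and 10.5 ± 0.947 FPKM, and the ratio differed by 0.62 ± 0.36 on the log2 scale.

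Genes of the vessel wall were examined as hosts from a list. Of 44 such genes listed (contractile, nitrate-signalling, channel and matrix genes), 3 were hosts, with 7 intronic transcripts, of which 6 were tested. None had an unadjusted p under 0.05, the lowest adjusted p was 0.665 in limma, and the median log2 difference was 0.16, beside 0.36 over all tested lncRNAs. Kcnma1, the pore of the large-conductance calcium-activated potassium channel that relaxes smooth muscle, held 5 of the 7.

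MSTRG.7043.1 in Kcnma1, 19740 nucleotides long, read 2.00, 4.31, 7.99 and 5.64 FPKM in controls and 6.32, 2.98, 6.21 and 10.8 FPKM after nitroglycerin, while Kcnma1 itself read 1.97 to 4.76 FPKM over all 8. MSTRG.7045.1, 37647 nucleotides long, averaged 3.49 ± 2.03 and 3.2 ± 1.27 FPKM. The groups overlapped for both. MSTRG.7048.1 and MSTRG.7048.3 overlap each other, so reads can be split between them, and MSTRG.7048.1 was listed at 0 in 4 libraries, control replicates 1 and 4 and nitroglycerin replicates 1 and 2. The transcript in Ltbp1, a matrix protein that binds latent TGF-beta, averaged 2.45 ± 1.45 and 3.11 ± 2.36 FPKM and was listed at 0 in nitroglycerin replicate 2, where Ltbp1 stood at 21.1 FPKM. That in Itpr1, the inositol trisphosphate receptor, read 0.171 to 0.692 FPKM in controls and 0.241 to 1.79 FPKM after nitroglycerin, on the strand opposite to the host.

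Genes that remove and degrade introns were examined from lists. Of 18 core spliceosome genes 17 were tested, and 0 passed by limma with Benjamini-Hochberg adjustment, while 14 were higher and 0 lower at an unadjusted p under 0.05, beside 34.1% and 1.02% of all genes. Their median log2 difference was 0.38, against 0.30 for all genes, and 0.06 after rescaling. Snrnp200, the helicase that unwinds U4 from U6, averaged 9.90 ± 1.21 and 14.6 ± 0.847 FPKM (adjusted p = 0.0585), and Sf3b1, which binds the branch site, 14.2 ± 2.20 and 19.2 ± 1.46 FPKM. Of 21 genes of intron turnover and the nuclear exosome 19 were tested, and 0 passed in the same test, while 10 were higher and 0 lower at an unadjusted p under 0.05, beside the same shares of all genes (median 0.31, and 0.07 after rescaling). Exosc10, a nuclease of the nuclear exosome, averaged 4.65 ± 0.622 and 6.93 ± 0.587 FPKM. None of the 8 listed nuclear lncRNAs was matched by symbol.

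Smooth muscle markers such as Acta2, at 2075 ± 270.3 and 1602 ± 584.9 FPKM, marked the libraries as vessel wall. The 7 smooth muscle markers found of 9 summed to 2033 to 2708 FPKM in controls and 1267 to 2658 FPKM after nitroglycerin, and 0 of 7 passed in limma (1 higher and 1 lower at an unadjusted p under 0.05). Adipocyte markers summed to 13.6 to 37.8 FPKM in controls and to 172 FPKM in nitroglycerin replicate 1 against 26.2 to 33.2 FPKM in the other nitroglycerin libraries, with 0 of 5 tested passing (1 higher at an unadjusted p under 0.05). Endothelial markers summed to 26.0 to 50.7 FPKM in controls and 48.1 to 60.0 FPKM after nitroglycerin, and macrophage markers to 40.5 to 102.7 and 57.8 to 99.9 FPKM. Of 7 markers each, 1 passed as higher, Esam and Cd163, beside 1.29% of all genes, and neither passed after rescaling. In each of these lists 4 of 7 were higher and 0 lower at an unadjusted p under 0.05, beside 34.1% and 1.02% of all genes. Of 3 tested skeletal muscle markers 1 was lower, Ckm, also after rescaling, and 0 of 6 fibroblast markers passed (2 higher and 2 lower at an unadjusted p under 0.05). No marker found was at 0 in every library, and Tnni2, of skeletal muscle, was under 0.1 FPKM in all 8. The part of cell makeup in the values of the intronic transcripts was not tested.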

How the data were processed

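Rat thoracic aorta RNA was sequenced in 8 libraries, 4 per group. The authors deposited FPKM per gene (27742 rows, 19625 annotated) and, for predicted lncRNAs, FPKM per transcript, coverage per base and the CPC and CNCI coding-potential scores, per the file headers. Per the submitters' processing notes, Bowtie 0.12.2, HISAT2 2.0 and StringTie 1.3.0 were used, and Rnor_6.0 and mm8 were the builds; which served which step is not given in the sources used here. Coordinates are as in the lncRNA table. Coverage divided by FPKM was constant within a library and gave the aligned sequence.

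Tests used limma 3.58.1 (trend) in R 4.3.3, with Benjamini-Hochberg adjustment over whole tables. Fold changes on log2(FPKM + pseudocount) understate those of low transcripts. Named transcripts were those past the test, the 5 of lowest p per direction in the transcript and ratio tests, the 5 highest, the 3 highest with over 1 exon, the 6 highest in vessel wall hosts, the 5 hosts with most transcripts and up to 10 called hosts per direction. Other called hosts, transcripts over 10 times their host and transcripts of called hosts were named after their values were seen. Members and the 10 gene lists were chosen with earlier results of these data known. The fits were tested on simulated data. Alternatives covered pseudocounts, filters, rescaling, robust variance, the replicate block and each library left out. Plots were made with matplotlib 3.10.9 under Python 3.11.15.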

Additional observations from a re-analysis of the deposited data

Results flagged for a closer look

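Within a group of 4 libraries, 1 library was set apart when its gap to the nearest other exceeded Dixon's critical share of the group's range. Chance sets apart about 1 in 20 groups of normally distributed values. That rate does not hold where the other libraries are all at 0, since any value above 0 is then set apart. Of the 83 groups examined, 7 (8.43%) had such a library. Several of these are of that kind, so the share cannot be set against the rate. Nitroglycerin replicate 4 had 755 intronic transcripts above 0, far from the 592 to 613 of the other nitroglycerin libraries.

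The remaining ones were single transcripts. In nitroglycerin replicate 3, MSTRG.8336.1 in Faf2 read 2.19 FPKM and was listed at 0 in the other 3 libraries of its group. In control replicate 4, MSTRG.4889.1 in AABR07034940.2 read 0.631 FPKM against 0 in the other 3 controls. MSTRG.5582.1 in Hscb read 0.642 FPKM in control replicate 1 against 0 in the other 3 controls, and 1.86 FPKM in nitroglycerin replicate 4 against 0.848 to 0.939 FPKM. In nitroglycerin replicate 1, MSTRG.15162.1 in Zfp384 read 1.41 FPKM against 0 in the others, and MSTRG.7048.3 in Kcnma1 read 2.41 FPKM against 0.163 to 0.495 FPKM.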

How the results depend on the processing

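The 1 called intronic transcript became 0 with robust variance (51 at an unadjusted p under 0.05), and 0 to 1 with 1 library left out. The 15 called hosts became 0 with a pseudocount of 0.1 (261 at an unadjusted p under 0.05), 0 after rescaling, 1 with a minimum of 0.1 FPKM, 61 with annotated rows only, an alternative chosen after seeing the data that tests fewer genes, and 0 to 19 with 1 library left out. The 4 called ratios became 1 with a pseudocount of 1, 0 with the minimum in all 8 libraries, which removes all 4 because each is at 0 throughout 1 group, and 0 to 5 with 1 library left out. For the other changes the cause was not tested. Leaving out pairs that share an assembled locus, also chosen after seeing the data, kept 4. For single transcripts, ratios and hosts, 252 values stayed on their side of the threshold, 139 fell short of it, 3 passed it, and 0 reversed.

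With the replicate number as a block, 0 transcripts, 0 hosts and 0 ratios passed (41, 218 and 31 at an unadjusted p under 0.05 in limma). Whether the numbers pair the libraries is not said. Same-numbered libraries correlated at -0.01 to 0.13 in deviations of gene values. There replicates 1 and 4 correlated best with their own number, and replicates 2 and 3 did not. In lncRNA values the same-numbered correlations were -0.02 to 0.02, and no replicate correlated best with its own number. These few correlations cannot decide whether the libraries are paired. Of the 609 tested, 418 were listed at 0 in some library. Aligned sequence per transcript was taken as coverage times length. For MSTRG.19477.1 in Cdc37 it was 71.2, 96.8, 76.1 and 91.2 kb in controls and 0 in each nitroglycerin library. For MSTRG.2935.1 in Ebf1 it was 0 in control replicate 1 and 348 to 803 kb in the others. The part of depth in these zeros was not tested.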
